A study of Homo sapiens with 12 samples.

Results

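AluS elements, the middle-aged Alu repeats of the human genome, were followed in RNA pulled down with V5-tagged proteins from A375 cells, an established human melanoma line. An element was a member when its subfamily name began with AluS and its reads lay on its own strand. There were 297674 such loci in 17 subfamilies among the 1514253 repeat loci listed in the 12 libraries. The 4 constructs were carried on pcDNA3.2 and transfected transiently, each with 3 libraries. Clover, a V5-tagged fluorescent protein, was the control. Z18fl was full-length ZC3H18, Z18trunc was truncated ZC3H18, and Z18truncZnFmut was the truncated protein with aromatic residues of its zinc finger mutated. Every group received the nucleoside 4sU 24 h after transfection and was crosslinked with UV light, the PAR-CLIP assay, so that RNA touching the tagged protein stayed attached. The constructs were added to the cells' own ZC3H18. The labels do not say whether the 3 libraries of a group came from separate cultures, and p-values then measure only the spread between these libraries, which may be technical.

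Alu elements are short interspersed repeats of primates that descend from the RNA of the signal recognition particle. They have a left and a right arm, end in a run of A, and were copied into the genome by the enzymes of LINE-1. AluJ is the oldest family, AluS arose next and AluY is the youngest. Most Alu RNA in a cell is carried inside other transcripts, in introns and in the 3' untranslated regions (3' UTRs) of messenger RNAs. ZC3H18 is a nuclear zinc finger protein that links capped transcripts to RNA decay by the exosome. No library of total RNA was analysed here, so more crosslinked RNA and more RNA in the cell cannot be told apart. In these bulk samples fewer cells with bound RNA and less bound RNA per cell cannot be told apart either.

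Over all members the median length was 298 bases and the median divergence from the subfamily consensus was 10.8%. By GENCODE annotation 43.4% of the loci lay in an intron on the strand of the gene, 29.3% between genes, 24.9% antisense to a gene and 2.32% in exons on the strand of the gene. The 3' UTR exons held 1.02% of the loci, 3025 of them, and exons of noncoding transcripts held 1.13%, 3373 of them. Noncoding transcripts here are those annotated as neither protein-coding nor subject to nonsense-mediated decay. They include such transcripts of protein-coding genes, so a noncoding exon need not belong to a noncoding RNA gene. An exon of any transcript took precedence over an intron, so an element in a noncoding exon can also lie in an intron of a coding transcript. Most loci carried little signal. In every library, 39.7% to 54.9% of the listed AluS loci had under 2 counts.

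The libraries held between 16683132 and 25686948 aligned fragments, with Clover the shallowest. AluS counts on the strand of the element ranged from 184798.1 to 412629.1 per library, and reads that map to a single place gave 67.0% to 76.9% of them. Z18truncZnFmut replicate 3 stood apart, with 153817 AluS loci listed against 49226 to 95676 in the other 11 libraries, and the falls and subfamily results of that construct are also given without it. Its AluS counts lay on the strand of the element in 56.9%, against 62.9% to 65.9% in the others. The tables hold repeats alone, so neither the transfected genes nor markers of the cell line could be checked in them.

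The first comparison asked whether more AluS RNA was recovered with ZC3H18 than with the control protein. AluS counts were scaled to counts-per-million (CPM) of the aligned fragments of a library. They were 11554, 11068 and 10456 with Clover, a mean of 11026 ± 550 (SD, n = 3). They were 12641, 11662 and 12702 with Z18fl (mean 12335 ± 584). They were 13332, 13473 and 13728 with Z18trunc (mean 13511 ± 201). Every ZC3H18 library was above every Clover library, and Z18trunc was above Z18fl without overlap. Z18truncZnFmut gave 13806, 13390 and 17039, a mean of 14745 ± 1997, and its first and second libraries were close to Z18trunc. Each of the comparisons without overlap had an exact two-sided permutation p of 0.1, the smallest that 3 libraries against 3 allow, and 0.18 after Benjamini-Hochberg adjustment over the 70 such tests made on per-library values.

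AluS made up a smaller part of the repeat counts with every ZC3H18 construct. Of all counts on the 6 classes of transposable elements, AluS took 27.6%, 28.7% and 27.4% with Clover. The shares were 24.4%, 23.6% and 23.1% with Z18fl and 24.0%, 23.7% and 23.6% with Z18trunc. They were 25.9%, 26.0% and 18.9% with Z18truncZnFmut. All 9 ZC3H18 libraries lay below all 3 Clover libraries (exact permutation p = 0.1 for each construct). AluS therefore gained per aligned fragment and lost as a share of the repeats, and the sign of its change depends on which total is used.

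The place of the element within genes separated the AluS counts. In introns on the strand of the gene the AluS level was 5211, 5062 and 4584 CPM with Clover. It was 6978, 6292 and 6947 with Z18fl, 6897, 7117 and 7178 with Z18trunc, and 6955, 7289 and 8048 with Z18truncZnFmut. No ZC3H18 library overlapped Clover there. In 3' UTR exons the order was turned, with 2958, 2827 and 2915 CPM for Clover and 1875, 1847 and 1910 for Z18fl. Z18trunc lay between them with 2507, 2417 and 2185, without overlap on either side. Z18truncZnFmut gave 2828, 2291 and 2239, and its first library overlapped Clover (exact permutation p = 0.2). In exons of noncoding transcripts AluS stood at 437 ± 22.7 CPM with Clover, 687 ± 20.3 with Z18fl, 614 ± 5.96 with Z18trunc and 564 ± 38.1 with Z18truncZnFmut. These 4 groups did not overlap, with an exact permutation p of 0.1 for each of the 5 comparisons. The counts by place were added after the data were seen. Levels of all repeats by place were not taken, so the gains in introns and noncoding exons are not shown to be particular to AluS. The tests of single loci below set all repeats beside AluS.

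**Figure D1:**
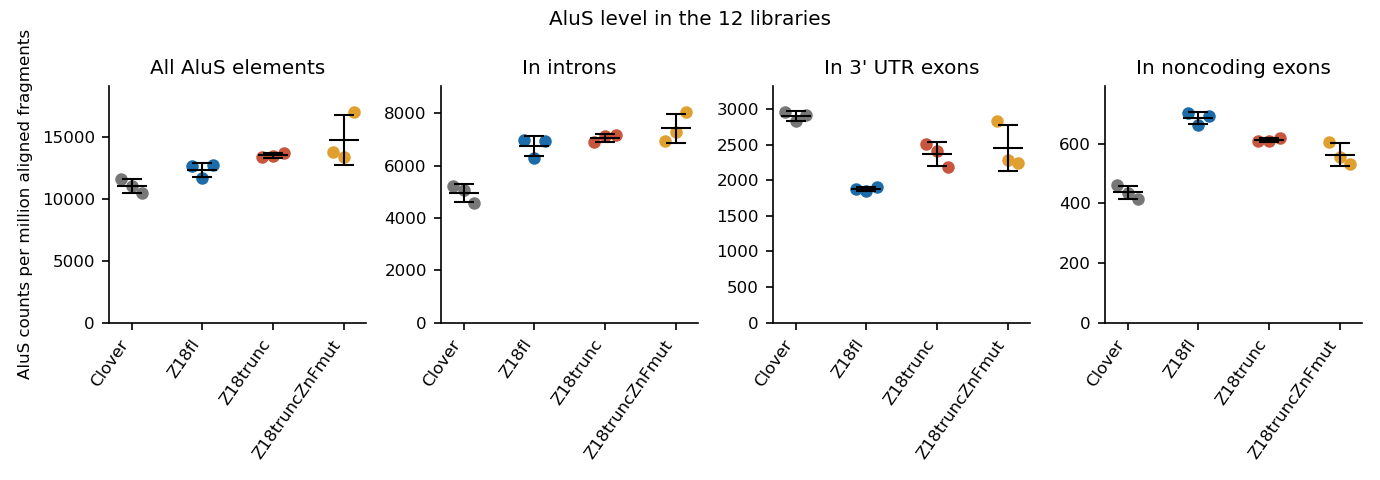
AluS level on the element's own strand, in CPM of aligned fragments, over all elements, in introns, in 3' UTR exons and in noncoding exons. Points are the 3 libraries of each construct and bars are the mean ± SD. Other repeats are not drawn. The Z18fl libraries lie above Clover in introns and noncoding exons and below it in 3' UTR exons, at 1847 to 1910 against 2827 to 2958.

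Single loci were then compared by edgeR (quasi-likelihood F test) after TMM scaling, which sets the bulk of the tested repeats to no change. Of the 297674 members, 3002 passed the count filter for Z18fl against Clover, 3362 for Z18trunc and 2702 for Z18truncZnFmut. A locus could pass on the counts of 1 group, so the shares below describe the well counted loci and not all members. Called loci are those with a Benjamini-Hochberg adjusted p under 0.05 over all loci tested.

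With Z18fl, 447 AluS loci rose and 1063 fell against Clover. Over all loci tested the background was 28.3% higher and 24.6% lower, and for AluS it was 14.9% higher and 35.4% lower. The median log2 fold change of the AluS loci was -0.46, against 0.01 over all loci. AluY and AluJ stood close to it, with 18.5% and 16.3% of loci higher and 33.1% and 32.2% lower, while L1 loci were 53.0% higher and 7.87% lower. When aligned fragments set the library sizes instead, the median over every locus was 0.37 rather than 0.01, and the AluS split became 647 higher and 665 lower.

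The fall with Z18fl was concentrated at loci in 3' UTRs. There 570 of the 869 tested AluS loci fell and 19 rose, with a median log2 fold change of -1.05 and an interquartile range from -1.40 to -0.60. Repeats of any family in 3' UTRs did likewise, with 1337 of 2404 loci lower and 88 higher. AluY had 66 of 113 and AluJ 183 of 300 lower in the same place. Under the aligned-fragment scaling 382 AluS loci in 3' UTRs still fell and 34 rose, and with uniquely mapping reads alone 434 of 732 fell and 18 rose.

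Introns gave a mixed picture with Z18fl. Of 1204 tested AluS loci in introns 256 rose and 248 fell, with a median log2 fold change of 0.01. Over all intron loci 2225 of 5324 rose and 684 fell, with a median of 0.64, and over L1 in introns 1285 of 1958 rose and 83 fell. The aligned-fragment scaling gave 364 AluS loci higher and 139 lower in introns. In noncoding exons 75 of 250 AluS loci rose and 31 fell, a median of 0.37 beside 0.36 for all repeats there. Loci antisense to a gene (42 of 284 higher, 95 lower) and between genes (43 of 351 higher, 109 lower) were more often lower than higher, a balance that turned to 58 higher and 55 lower for the antisense loci under the aligned-fragment scaling. Over all repeats 18.8% of antisense loci rose and 28.1% fell, and between genes 28.1% rose and 22.1% fell.

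With Z18trunc the AluS calls were fewer, 237 higher and 570 lower, against backgrounds of 22.5% and 13.4%. Loci in 3' UTRs gave 338 of the falls and 2 of the rises among 957 tested, with a median log2 fold change of -0.63. That was 35.3% lower, near the 33.0% of all repeats in 3' UTRs, whose median was -0.595. In introns 142 of 1376 AluS loci rose and 99 fell, 10.3% and 7.19%, where all intron loci had 35.4% higher and 6.01% lower. In noncoding exons 30 of 239 rose and 15 fell, with 12.6% higher beside 12.3% for all repeats there. Aligned-fragment scaling turned the split over all AluS loci to 372 higher and 141 lower, with 82 lower and 10 higher left in 3' UTRs, so the direction of AluS as a whole with Z18trunc depends on the scaling. The median of all loci was -0.03 under TMM and 0.31 under aligned fragments. The falls dropped to 297, 296 and 369 without Z18trunc replicate 1, 2 or 3, and the rises to 155 without replicate 1 or 3.

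With Z18truncZnFmut 43 AluS loci rose and 149 fell, against backgrounds of 12.3% and 4.83%. Again 3' UTRs held most falls, 106 of 887 tested, with 1 rise and a median log2 fold change of -0.43. Of all repeats in 3' UTRs 315 of 2395 fell, 13.2%, with a median of -0.45. Without Z18truncZnFmut replicate 3, 81 AluS loci fell, 56 of them in 3' UTRs. The falls numbered 94 and 69 without replicate 1 or 2 of that group and 93 without Clover replicate 1 or 3, and the rises numbered 27 without Z18truncZnFmut replicate 1. Under the aligned-fragment scaling 64 AluS loci rose and 36 fell, with 26 falls in 3' UTRs, and the median of all loci went from -0.05 to 0.15. Whether the numbers of calls differ between constructs was not tested, since all 3 were set against the same Clover libraries.

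**Figure D2:**
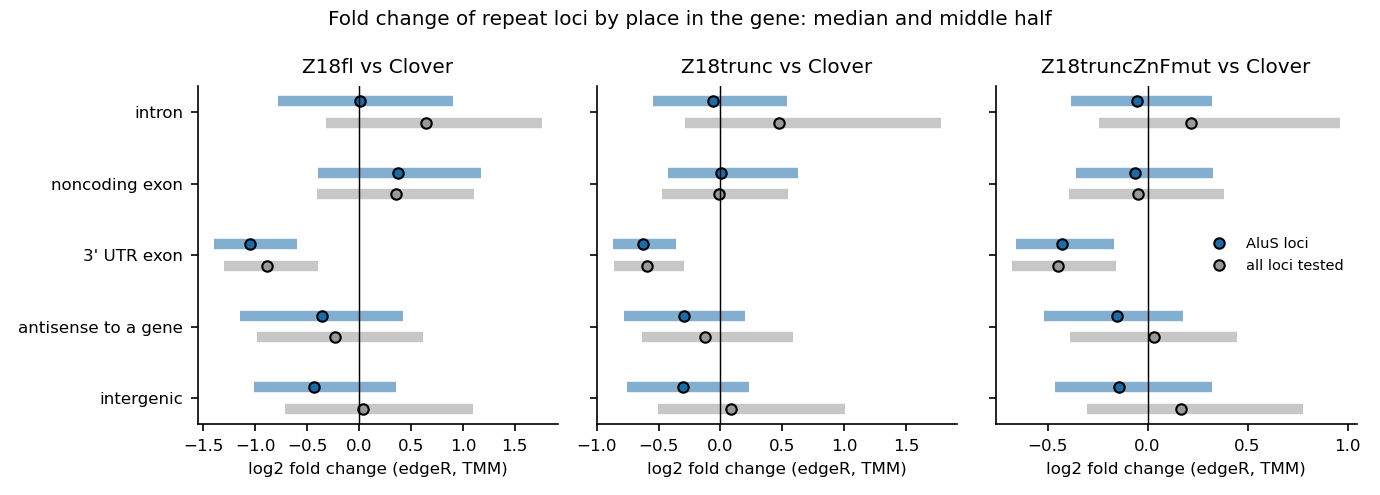
Log2 fold change against Clover of the loci tested with edgeR, by place in the gene, for AluS loci and for all repeat loci. Points are medians and bars run from the lower to the upper quartile. The AluS loci in 3' UTR exons lie left of 0 for all 3 constructs, with medians of -1.05, -0.63 and -0.43.

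The AluS loci with the highest levels all lay in 3' UTRs. The first was an AluSp in EIF3I, a subunit of a translation initiation factor (chr1:32231212-32231509). It had 3050, 3158 and 3351 counts with Clover, 1746, 2024 and 2222 with Z18fl, 3252, 3217 and 2463 with Z18trunc and 3279, 3248 and 2836 with Z18truncZnFmut. In CPM that was 186 ± 3.51 with Clover, 83.4 ± 6.95 with Z18fl, 125 ± 17.9 with Z18trunc and 135 ± 17.7 with Z18truncZnFmut, with every ZC3H18 library below every Clover library. Against Clover its log2 fold change was -1.52 with Z18fl (SE 0.11, edgeR adjusted p = 8.6e-09), -0.93 with Z18trunc (SE 0.10, adjusted p = 7.8e-07) and -0.65 with Z18truncZnFmut (SE 0.14, adjusted p = 0.0019).

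The other loci of that rank were AluSx elements in MYO1C, an unconventional myosin, in CAVIN1, a coat protein of caveolae, and in FADS1, a fatty acid desaturase, and an AluSz in ABL2, a tyrosine kinase. All 4 were called lower with each construct under TMM. In CPM the Z18truncZnFmut libraries overlapped Clover at CAVIN1 (25.8 to 39.1 against 36.9 to 37.7) and at ABL2 (29.7 to 42.8 against 41.1 to 46.2). At FADS1 they reached the lowest Clover library (24.2 to 39.3 against 39.3 to 43.5). The FADS1 element had 726, 731 and 695 counts with Clover and 433, 404 and 386 with Z18fl, a log2 fold change of -1.65. The CAVIN1 element changed least, with -0.48 for Z18fl, and its counts of 824, 759.6 and 886.3 with Z18fl were above the 629, 632 and 652 of the shallower Clover libraries. In CPM it stood at 34.4 ± 1.24 with Z18fl and 37.2 ± 0.45 with Clover.

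Among the falls of the naming rule was an AluSz6 in the 3' UTR of IFT22, an intraflagellar transport protein (chr7:101313872-101314154). It had 47, 29 and 46 counts with Clover and 21.35, 14 and 27 with Z18fl, a log2 fold change of -1.82 (adjusted p = 6.1e-05), and Z18trunc gave 36, 35 and 33. An AluSg in the 3' UTR of PNMA8A (41, 39 and 73 counts with Clover, 42, 42 and 45 with Z18fl) fell by 1.08 on the log2 scale. An AluSp antisense to KATNAL2, with 22, 40.72 and 30 counts for Clover and 18, 15 and 6.22 for Z18fl, was called lower with Z18fl and Z18trunc. Unique reads made up 13.2% of its counts, and its value rests on the authors' assignment of shared reads. Its counts with Z18fl or Z18trunc alone would not have passed the count filter, so these calls leaned toward a fall from the start.

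A second list, chosen after values were seen, kept loci with at least 80% unique reads in the group with the higher level. An AluSx3 in the 3' UTR of ZNF121, a zinc finger protein (chr19:9562162-9562462), had 155.7, 156 and 173.7 counts with Clover and 72, 69 and 91 with Z18fl, a log2 fold change of -1.92 (adjusted p = 4e-08). An AluSz in the 3' UTR of PCYOX1, an enzyme of prenylcysteine breakdown, had 55, 74 and 66.02 counts with Clover and 36, 30 and 29 with Z18fl. Outside UTRs, an AluSx between genes on chromosome 7 had 42, 52 and 54 counts with Clover and 32, 14 and 19 with Z18fl, a log2 fold change of -2.02 (adjusted p = 2.5e-05). An AluSx3 in an intron of CPNE7 had 64, 55 and 49 counts with Clover, 27, 32 and 36 with Z18fl, 44, 38 and 35 with Z18trunc and 40, 48 and 32 with Z18truncZnFmut. It fell with all 3 constructs, by 1.67, 1.35 and 1.11 on the log2 scale. An AluSq2 in the 3' UTR of TOP3A, a topoisomerase, also fell with all 3, from 56, 52 and 59 counts with Clover to 42, 31.47 and 27.64 with Z18truncZnFmut (log2 fold change -1.37, adjusted p = 0.00038).

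The named rises with Z18fl lay in introns, antisense to a gene or in noncoding exons. An AluSx in an intron of ANKRD11, a chromatin regulator, had 3, 10 and 1 counts with Clover and 34, 38 and 33 with Z18fl, a log2 fold change of 2.05 (SE 0.49, adjusted p = 0.0021). Z18trunc gave 13, 10 and 16.54 counts there and Z18truncZnFmut 8, 10 and 7, and neither was tested against Clover at this locus. An AluSz in an intron of STIP1, a co-chaperone, had 6, 8 and 5 counts with Clover, 41, 37 and 53 with Z18fl, 18, 29 and 24 with Z18trunc and 17, 19 and 9 with Z18truncZnFmut. Its log2 fold change was 1.92 with Z18fl (adjusted p = 0.00024) and 1.06 with Z18trunc (adjusted p = 0.066). An AluSz antisense to LONP1, a mitochondrial protease, rose by 1.31 and an AluSg in an intron of AARS1, the alanyl-tRNA synthetase, by 1.16. The ANKRD11, STIP1 and LONP1 elements passed the count filter through the ZC3H18 libraries and not on Clover counts alone, so a call there could only be a rise.

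In the second list the first rises lay in noncoding exons of ADAR, the enzyme that edits adenosine in double-stranded RNA, and of RPL6, a ribosomal protein. Both genes are protein-coding, so these exons belong to transcripts of them that are not annotated as coding. Whether the elements lie in introns of the coding transcripts was not checked. The first ADAR element (chr1:154600154-154600457) had 2, 3 and 3 counts with Clover and 63, 59 and 39 with Z18fl, a log2 fold change of 3.47 (SE 0.45, adjusted p = 8.2e-06). It had 33, 41 and 32 counts with Z18trunc, which also passed the test (log2 fold change 2.86, adjusted p = 7.9e-05), and 13, 16 and 11 with Z18truncZnFmut. Another AluSg in a noncoding exon of the same gene had 6, 0 and 1 counts with Clover and 38, 42 and 33 with Z18fl (log2 fold change 3.13, adjusted p = 0.00022). The RPL6 element had 1, 3 and 3 counts with Clover, 38, 34 and 52 with Z18fl, 35, 40 and 29 with Z18trunc and 29, 22 and 21 with Z18truncZnFmut. The ADAR and RPL6 elements passed the count filter through the ZC3H18 libraries, so a call there could only be a rise. They were not tested for Z18truncZnFmut against Clover.

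Among the rises of the second list with Z18trunc was an AluSz6 in an intron of TPTE, a testis-enriched phosphatase-like gene (chr21:10572171-10572477). It had 0, 1 and 1 counts with Clover, 27, 12.46 and 35 with Z18fl, 33, 31 and 41 with Z18trunc and 13, 10 and 16 with Z18truncZnFmut. The edgeR log2 fold change with Z18trunc was 4.718 (SE 0.645, adjusted p = 1.3e-05), but with so few Clover counts its size is uncertain. An AluSx in an intron of STAG3L4 had 3, 0 and 2 counts with Clover and 42, 35 and 29 with Z18trunc (adjusted p = 7.9e-05). The TPTE and STAG3L4 elements also passed the filter through the ZC3H18 libraries, so a call could only be a rise. Neither was tested for Z18truncZnFmut against Clover, nor the TPTE element for Z18fl. No locus that rose with Z18truncZnFmut met either naming rule.

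**Figure D3:**
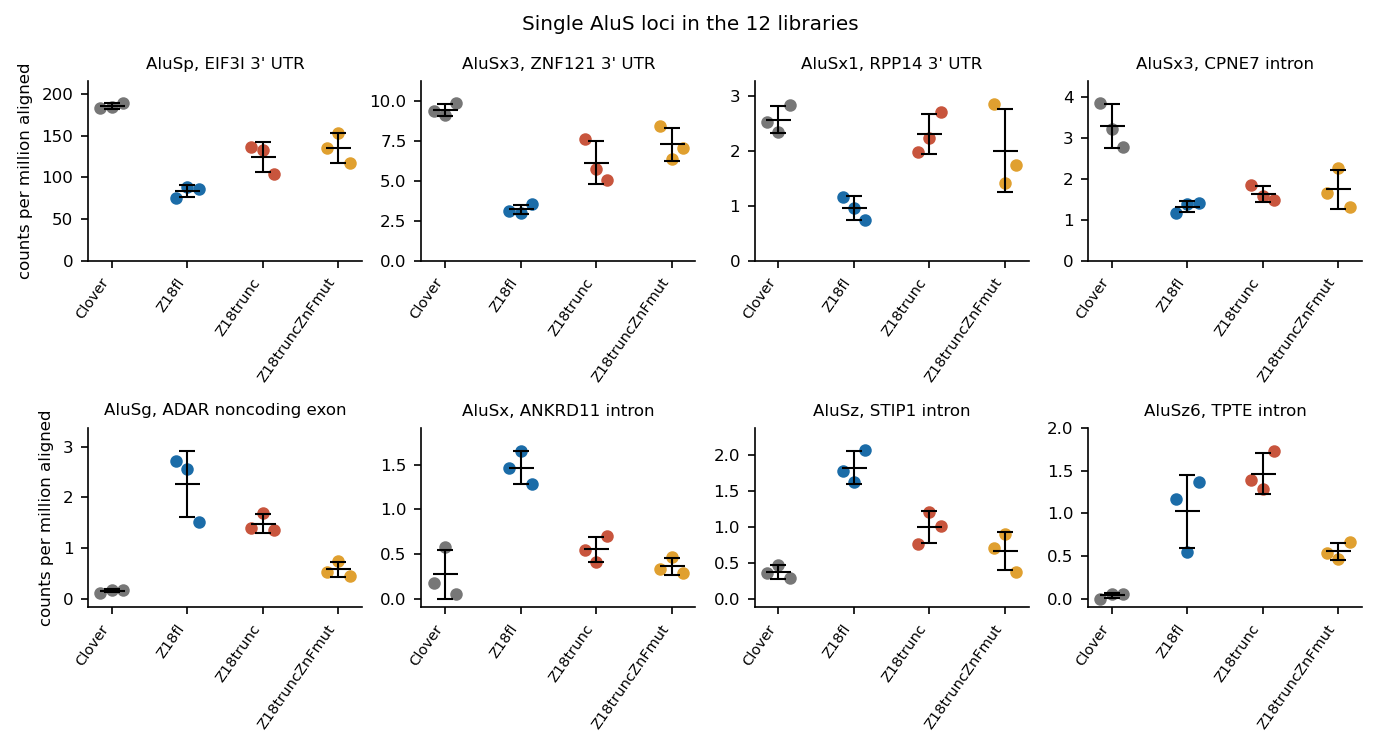
Counts in CPM of aligned fragments at 8 AluS loci in the 12 libraries, with points for libraries and bars for the mean ± SD of the 3 libraries of a construct. The ADAR panel shows the first of the ADAR elements described. In the upper row Clover has the highest mean level, and in the lower row Z18fl or Z18trunc has it.

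Counts summed over each subfamily moved together. Against backgrounds of 20.1% higher and 20.1% lower, 16 of the 17 AluS subfamilies fell with Z18fl under TMM and none rose. AluSp fell most, by 0.51 on the log2 scale (SE 0.06, adjusted p = 3.9e-06), and AluSq4, the exception, had a log2 fold change of 0.00 (adjusted p = 0.96). With library sizes from aligned fragments no subfamily fell and 8 rose, from AluSx at 0.18 to AluSq4 at 0.47, while AluSp stood at -0.04 (adjusted p = 0.64). In a single edgeR fit of all 12 libraries no AluS subfamily was called for Z18fl, and none had an unadjusted p under 0.05. The direction of the subfamilies thus depended on the scaling, while AluSp was the lowest of the 17 under both.

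With Z18trunc 1 of 17 subfamilies fell, AluSp (log2 fold change -0.32, adjusted p = 0.043), against backgrounds of 15.7% higher and 11.0% lower. Aligned-fragment scaling gave 15 higher and none lower. AluSp was no longer called without any 1 of the Clover libraries, and 2 subfamilies fell without Z18trunc replicate 1 or 3. Z18truncZnFmut gave no call by edgeR under either scaling and none by DESeq2, while an unadjusted p under 0.05 was reached by 0 under TMM and 7 under aligned fragments. The background there was 1.3% higher and 0.0% lower, and the SE of the AluSp fold change was 0.35. Without Z18truncZnFmut replicate 3, 98 of 894 subfamilies were higher and 52 lower. No AluS subfamily was called without it either, and none had an unadjusted p under 0.05, while the median AluS log2 fold change went from -0.31 to -0.009.

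The single EIF3I locus weighed on AluSp. It gave 14.5% ± 0.90 of all AluSp counts with Clover, 6.70% ± 0.72 with Z18fl, 8.80% ± 1.13 with Z18trunc and 8.97% ± 1.75 with Z18truncZnFmut. With it, AluSp stood at 1280 ± 55.6 CPM with Clover and 1247 ± 45.7 with Z18fl. Without it the values were 1095 ± 58.9 and 1163 ± 49.4. The libraries of both groups overlapped with and without the locus. As a share of AluS counts, AluSp without that locus was 10.1% ± 0.06 with Clover, 9.50% ± 0.05 with Z18fl, 9.63% ± 0.19 with Z18trunc and 9.52% ± 0.52 with Z18truncZnFmut. This check was added after the data were seen.

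**Figure D4:**
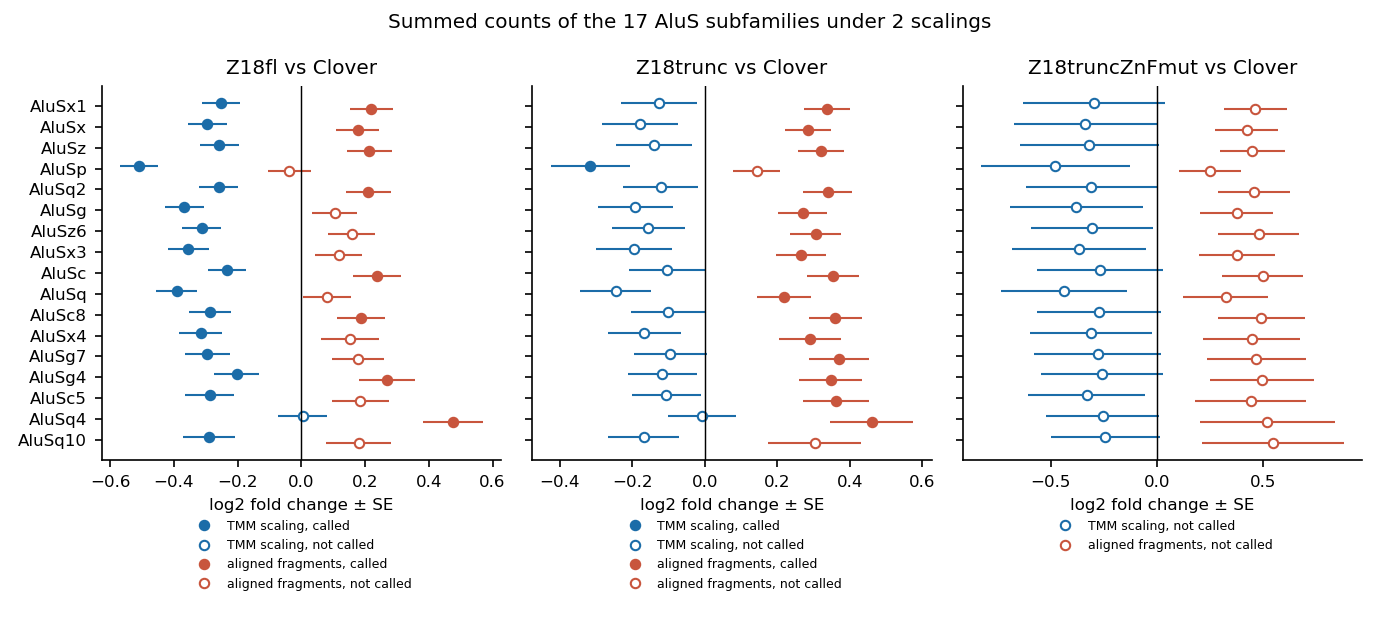
Log2 fold change against Clover of the summed counts of the 17 AluS subfamilies, with SE from edgeR, under TMM scaling and with library sizes from aligned fragments. Filled points passed an adjusted p of 0.05. Under TMM 16 subfamilies fell with Z18fl, under aligned fragments 8 rose, and AluSp is the leftmost in both.

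AluS was also set against its sister families. The log2 ratio of AluS to AluY counts was 2.69 ± 0.01 with Clover, 2.69 ± 0.01 with Z18fl, 2.65 ± 0.02 with Z18trunc and 2.66 ± 0.02 with Z18truncZnFmut, and Z18trunc alone did not overlap Clover (exact permutation p = 0.1). The ratio to AluJ was 1.38 ± 0.01 with Clover and 1.32 ± 0.02 with Z18fl, without overlap (exact permutation p = 0.1), and 1.35 with each truncated form, of which Z18truncZnFmut did not overlap Clover (p = 0.1) and Z18trunc did (p = 0.2). The divergence of AluS weighted by counts was 10.75% with Clover, 10.74% with Z18fl and 10.77% with Z18trunc, and both overlapped Clover. It was 10.83% with Z18truncZnFmut, whose libraries at 10.770, 10.805 and 10.904 lay above the 10.738 to 10.768 of Clover (exact permutation p = 0.1).

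Truncated and full-length ZC3H18 were then set against each other. Of 4715 AluS loci tested, 114 were higher and 131 lower with Z18trunc, against backgrounds of 2.62% and 3.13%, and the median log2 fold change was 0.00. Loci in 3' UTRs tended up with Z18trunc, with 61 higher and 15 lower of 953 and a median of 0.29, where all repeats in 3' UTRs had 129 higher and 56 lower of 2739. Noncoding exons went the other way, with 1 higher and 26 lower of 404, which is 6.44% lower beside 6.8% for all repeats there. In introns 27 were higher and 55 lower of 2356, which is 1.15% and 2.33% beside 1.96% and 2.93% for all intron loci. The 114 higher loci became 40, 40 and 72 without Z18fl replicate 1, 2 or 3 and 41 and 59 without Z18trunc replicate 1 or 2, and the 131 lower ones became 53 and 48 without Z18fl replicate 1 or 2 and 49 and 56 without Z18trunc replicate 1 or 2. No AluS subfamily was called by edgeR, where the backgrounds were 1.48% and 2.22%, and none reached an unadjusted p of 0.05 there or was called by DESeq2. Without Z18trunc replicate 3, 1 subfamily was higher.

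The loci named next were taken from the calls of this comparison and serve as examples only. An AluSx1 in the 3' UTR of RPP14, a subunit of ribonuclease P (chr3:58318721-58319006), had 42, 40 and 50 counts with Clover, 27, 22 and 19 with Z18fl, 47, 54 and 64 with Z18trunc and 69, 30 and 42 with Z18truncZnFmut. It was higher with Z18trunc than with Z18fl by 1.20 on the log2 scale (adjusted p = 0.0095). The ANKRD11 element was lower with Z18trunc by a log2 fold change of -1.46 (adjusted p = 0.0085). An AluSc in an intron of NADK, the NAD kinase, had 42, 42 and 46 counts with Z18fl and 19, 27 and 22 with Z18trunc, a log2 fold change of -1.01 (adjusted p = 0.022), and Clover had 10, 11 and 12.

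Few loci of any kind were called between the zinc finger mutant and Z18trunc. Against Z18trunc, Z18truncZnFmut had 14 AluS loci higher and 14 lower of 4198, 0.333% each way. The backgrounds were 0.368% and 0.351%, so the small number was not particular to AluS. Those higher numbered 6 without Z18truncZnFmut replicate 3, 23 without its replicate 1, 1 without Z18trunc replicate 1 or 3 and 0 without Z18trunc replicate 2, and those lower numbered 3, 6 and 2 without Z18trunc replicate 1, 2 or 3. Loci in 3' UTRs gave 5 of the higher ones and none of the lower ones among 969 tested, 0.516% beside 0.375% for all repeats in 3' UTRs. None of the subfamilies was called by edgeR in this comparison, where the backgrounds were 0.0% in both directions, and none had an unadjusted p under 0.05 or was called by DESeq2. Without Z18truncZnFmut replicate 3 none was called and 1 had an unadjusted p under 0.05, and the median AluS subfamily fold change turned from -0.12 to 0.15. AluS CPM in noncoding exons was lower with Z18truncZnFmut, at 606, 556 and 531 against 611, 609 and 620, without overlap (exact permutation p = 0.1).

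Sequence context differed between the loci called in each direction, which is given as a description without a test. The 447 loci that rose with Z18fl had a median AT content of 50.5% in the 200 bases on either side, against 55.8% for the 1063 that fell and 53.5% for all tested. Within introns the medians were 50.5% for the rises, 53.5% for the falls and 52.0% for all tested. With Z18trunc the intronic rises had flanks of 57.8% AT, while the falls had 53.2%, the same as all intron loci tested. In the direct comparison the 27 intron loci higher with Z18trunc had flanks of 59.0% AT and the 55 higher with Z18fl had 48.5%, beside 53.0% for all tested there. The element itself differed less, with a median AT content of 46.8% for Z18fl rises and 47.5% for falls. Weighted by counts over all AluS, the flanks were 55.7% AT with Clover, 55.6% with Z18fl, 56.1% with Z18trunc and 56.6% with Z18truncZnFmut, so Z18fl overlapped Clover while both truncated forms lay above it without overlap (exact permutation p = 0.1 for each).

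AATAAA, the usual signal for cleavage and polyadenylation, searched on the strand of the element alone, occurred in 19.0% of all AluS loci listed. It was present in 17.4% of the loci tested for Z18fl, in 14.1% of those that rose and in 18.1% of those that fell. The longest run of A had a median of 9 bases in rises and falls alike.

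Some called loci shared a gene. With Z18fl, 881 genes carried a called AluS locus on their strand and 221 carried 2 or more. In 48 of these all called loci rose, in 139 all fell and in 34 they were mixed. The same count was not made over all repeats. Falls also outnumbered rises among the AluS calls with Z18fl, 1063 against 447, so the split by gene is a description only. ZNF568, a zinc finger gene, had 6 that fell with Z18fl. OPA3, a mitochondrial protein, had 4 that fell with Z18trunc and 4 with Z18truncZnFmut. CCDC200 had 7 that rose and 1 that fell with Z18trunc, and TPTE 4 that rose. With Z18truncZnFmut NEAT1, the nuclear noncoding RNA of paraspeckles, had 2 that rose. These genes were picked after their values were seen, and loci of the same transcript are not independent.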

How the data were processed

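The PAR-CLIP libraries were stranded and depleted of ribosomal RNA. Per the labels' processing notes reads were trimmed with cutadapt 4.6, and the authors ran SQuIRE on hg38 for each library without pooling. The deposited counts are uniquely mapping reads per element and strand, together with all reads that touch an element and the aligned fragments of the library. The deposited expected counts also hold fractions of reads with several places, assigned by the authors' tool through expectation maximization, so the placement of reads among near-identical Alu copies is an estimate. The deposited score is the expected count as a percent of all reads that touch the element, and the deposited divergence is that of RepeatMasker. The FPKM values that the authors deposited were not used.

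Members were rows on the strand of the element with a subfamily name that begins with AluS. Starts were moved to 1-based positions, and GENCODE 44 gave the place of each element. An element was exonic when at least 50% of its length lay in exons on its strand, intronic when its middle lay in a gene on its strand, and otherwise antisense or intergenic. Flanks were 200 bases on each side. Python 3.11.15 with pandas 2.3.3, numpy 2.4.6, scipy 1.17.1, pysam 0.24.0 and bedtools 2.31.1 was used, and matplotlib 3.10.9 drew the plots.

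Expected counts were rounded and tested by edgeR 4.0.16 in R 4.3.3 (TMM, minimum count 10, minimum total 15) over the loci of 6 classes of transposable elements, with a separate fit of 6 libraries for each of 5 comparisons and Benjamini-Hochberg adjustment over all loci or all subfamilies. The edgeR step was tested on simulated data with 200 changed loci. In the data 3424 loci were higher and 2981 lower with Z18fl of 12098 tested. The simulation therefore does not cover the scaling where many loci change. Per-library values were tested by exact permutation, two-sided. Alternatives were DESeq2 1.42.0, library size from aligned fragments, no filter, unique reads, either strand, all 12 libraries in 1 fit, a replicate block and each library left out.

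Loci were named where they were called, did not overlap between groups, and averaged 30 counts or more and a score of 90 or more where they were higher, up to 4 in each direction against Clover and up to 2 between constructs, together with the 5 loci of highest level. Chromosome 8 was left out of naming. The second list dropped the score, required 80% unique reads in the higher group and took up to 3 in each direction. Members and lists were chosen with earlier results of these data known. The sequences of single elements are not reported here.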

Additional observations from a re-analysis of the deposited data

Results flagged for a closer look

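AluS reads on the strand opposite to the element lie outside the comparisons above, and they were above the control level with every ZC3H18 construct. In CPM of aligned fragments these antisense counts were 5799 ± 184 (SD, n = 3) with Clover, 7106 ± 193 with Z18fl and 7714 ± 321 with Z18trunc. With Z18truncZnFmut they were 9305 ± 3130, from libraries at 7251, 7754 and 12910, the last being replicate 3. Every ZC3H18 library lay above the 5625 to 5991 of Clover. The opposite-strand level of all repeats was not taken, so this rise is not shown to be particular to AluS. On the strand of the element, aligned-fragment scaling put the median log2 fold change of all loci tested above 0 as well. It was 0.37 with Z18fl, 0.31 with Z18trunc and 0.15 with Z18truncZnFmut.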

How the results depend on the processing

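Depth limited the test to the well counted loci, and most members had too few counts for a call. Expected counts place multimapping reads by estimate. The cause of the shifts below was not tested. Of the values over alternatives, 509 of 557 for the named loci kept their call, 48 lost it and 0 turned direction. For the per-library measures 475 of 510 kept their direction, and 64 of 130 counts of called loci stayed within 1.5 times. Most named loci were chosen because they were called and did not overlap between groups in these same data. Leaving out a library could therefore hardly turn their direction. A per-library difference without overlap likewise cannot turn sign when a library is left out. The kept values of named loci and per-library measures are thus no independent check.

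Scaling by aligned fragments moved the subfamily counts and many locus counts. For Z18fl against Clover it gave 665 AluS loci lower against 1063, a median log2 fold change of -0.10 against -0.46, 8 subfamilies higher and 0 lower. For Z18trunc it gave 372 higher and 141 lower against 237 and 570, a median of 0.021 against -0.32, 15 subfamilies higher and 0 lower. For Z18truncZnFmut it gave 36 lower against 149 and a median of -0.015 against -0.22. For Z18trunc against Z18fl the median became 0.073, and for Z18truncZnFmut against Z18trunc 6 were higher and 30 lower against 14 and 14, with a median of -0.052 against 0.12.

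Without the filter on low counts many more loci were tested. Z18fl then had 376 lower and a median of 0.89, Z18trunc 443 higher, 22 lower and a median of 1.296, and Z18truncZnFmut 67 higher, 3 lower and a median of 1.714, so these medians turned sign. The medians over all loci were then 1.671, 1.711 and 1.714 for the same constructs. AluS was at or below them, so the turn was not a gain of AluS over other repeats. Z18trunc against Z18fl had 35 higher, 53 lower and a median of -0.015, and Z18truncZnFmut against Z18trunc 6 higher, 26 lower and a median of 0.71.

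DESeq2 gave a median of -0.40 for Z18fl, 325 loci and 2 subfamilies lower for Z18trunc, 21 higher and 95 lower for Z18truncZnFmut, 49 higher and 56 lower for Z18trunc against Z18fl, and 9 lower for Z18truncZnFmut against Z18trunc. Unique reads alone gave 138 higher and 340 lower for Z18trunc, 24 and 87 for Z18truncZnFmut, and 7 lower for Z18truncZnFmut against Z18trunc. Reads on either strand gave 674 higher and a median of -0.33 for Z18fl, a median of -0.215 and 0 subfamilies lower for Z18trunc, and a median of -0.14 for Z18truncZnFmut. All 12 libraries in 1 fit gave 676 higher, a median of -0.35 and 0 subfamilies lower for Z18fl, 383 higher and 0 subfamilies lower for Z18trunc, 168 higher, 391 lower and a median of -0.175 for Z18truncZnFmut, 53 higher and 42 lower for Z18trunc against Z18fl, and 9 higher for Z18truncZnFmut against Z18trunc.

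Libraries with the same replicate number did not deviate together, with correlations from -0.0697 to 0.0221 over the pairs, so the numbers were not taken to pair the samples. With the replicate block 26 loci rose with Z18truncZnFmut, 73 were higher with Z18trunc than with Z18fl (median -0.006), 2 were higher and 9 lower with Z18truncZnFmut than with Z18trunc, and 0 subfamilies fell with Z18trunc.

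Some small differences between per-library values turned sign with other reads. The difference of the log2 ratio of AluS to AluY was 0.00419 for Z18fl against Clover and -0.0198 for Z18truncZnFmut against Z18trunc with reads on either strand. For Z18truncZnFmut against Z18trunc the difference of the ratio to AluJ was -0.00714 with unique reads and -0.00414 with either strand, and unique reads gave differences of -27.9 CPM in introns, -105.1 in exons and -31.0 in 3' UTR exons. For Z18fl against Clover unique reads gave 0.113 percentage points of flank AT content and 0.0149 of divergence.

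Leaving out each library in turn gave these ranges. For Z18fl against Clover the median ran from -0.55 to -0.29. For Z18trunc 155 to 345 loci were higher and 296 to 558 lower, the median ran from -0.38 to -0.21 and 0 to 2 subfamilies were lower. For Z18truncZnFmut 27 to 60 were higher and 69 to 114 lower, with medians from -0.22 to -0.155. For Z18trunc against Z18fl 40 to 111 were higher and 48 to 138 lower, with medians from -0.037 to 0.031 and 0 to 1 subfamilies higher. For Z18truncZnFmut against Z18trunc 0 to 23 were higher and 2 to 21 lower, with medians from 0.082 to 0.157.

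Per-library differences that turned sign when a library was left out were small or rested on Z18truncZnFmut replicate 3. Between Z18trunc and Z18fl the AluS share of element counts ran from -0.282 to 0.398 percentage points and the strand share from -0.176 to 0.598. For Z18fl against Clover the ratio to AluY ran from -0.00685 to 0.00543, flank AT from -0.113 to 0.0448 and divergence from -0.0139 to 0.00136. For Z18truncZnFmut against Clover the unique share ran from -0.91 to 1.95. Between Z18truncZnFmut and Z18trunc the element share ran from -1.325 to 2.22, the intron share from -3.48 to 0.124, the exon share from -3.495 to 0.912, the strand share from -3.555 to 0.782 and flank AT from -0.0169 to 0.764. There the ratio to AluY ran from -0.00402 to 0.0216, the ratio to AluJ from -0.0196 to 0.0153, exon CPM from -186.0 to 149.9 and 3' UTR CPM from -104.4 to 189.7.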
